A study of Mus musculus with 12 samples.

Results

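The 10 genes described here handle calcium in the kidney or carry its hormone signals: the vitamin D enzyme genes Cyp27b1 and Cyp24a1, the vitamin D receptor gene Vdr, the Klotho gene Kl, the parathyroid hormone receptor gene Pth1r, the calcium transport genes Trpv5, Calb1, S100g and Slc8a1, and the stanniocalcin gene Stc1. They were taken by symbol from a table of 21004 genes, and all 10 were found there and passed the filter on low values. Transcripts were measured by RNA sequencing of kidneys from ICR mice, an outbred strain, aged 8 weeks. The 12 libraries fell into 4 groups of 3, given busulfan plus L.J. (10 mg/kg), busulfan, L.J. alone (10 mg/kg), or neither (control). Busulfan, an alkylating drug, crosslinks DNA. What L.J. stands for is not explained in the labels, where the titles write Lu and the design text speaks of FMT, so what those animals received is uncertain. Neither sex nor a busulfan dose is in the labels, and whether replicates are different animals is not stated, so p-values measure only how far these libraries spread.

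The kidney makes the active form of vitamin D with the hydroxylase encoded by Cyp27b1 and breaks it down with the one encoded by Cyp24a1. Parathyroid hormone favours the first enzyme, while the bone hormone FGF23, which needs Klotho as its co-receptor, favours the second and lowers phosphate reabsorption in the proximal tubule. In the distal convoluted and connecting tubules, calcium enters the cell through the channel TRPV5, is carried across it by the calbindins and leaves through an exchanger and a pump, a route that vitamin D, parathyroid hormone and Klotho regulate.

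Values are FPKM, fragment counts divided by transcript length and library total. Trends with transcript length remained in some libraries, so levels of genes of different length compare only approximately. Changes are differences of log2(FPKM + 1), tested with limma across 12281 genes with Benjamini-Hochberg adjustment, and genes with an adjusted p under 0.05 were called. FPKM keep no depth, so the depth of the libraries is unknown, and their FPKM sums ran from 481937 to 541844. Busulfan 1 and 2 stood apart from the other 10 libraries: they scored -40.4 and -47.3 on the first principal component, against 10.5 in busulfan 3 and 1.9 to 16.9 in the other 9 libraries. The proximal tubule transcript Kap took 2.13% and 1.03% of the FPKM sum in these 2 libraries, against 6.61% to 9.73% in the others. Busulfan 3 had in its turn a trend with transcript length (Spearman correlation across genes of -0.507, where the other 11 libraries had -0.066 to 0.299). Markers of the proximal tubule, the thick ascending limb, the distal tubule and the collecting duct were present in every library. The skeletal muscle gene Myh4 and the adrenal gene Cyp11b1 were at 0 in all 12, but other markers of these tissues were detected. The muscle gene Acta1 reached 2.98 FPKM in busulfan plus L.J. 3. The 4 adrenal markers summed to 2.88 and 2.38 FPKM in busulfan 1 and 2, and to 0.75 to 1.3 FPKM in the other 10 libraries.

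Of the 10 genes, S100g was the most abundant and Stc1 the least. Mean levels over the 12 libraries were 514.8 FPKM for S100g, 235.7 for Pth1r, 210.2 for Kl, 151.8 for Calb1 and 99.6 for Vdr. The remaining 5 genes were lower, at 23.1 FPKM for Cyp24a1, 14.4 for Slc8a1, 6.68 for Trpv5, 2.25 for Cyp27b1 and 2.12 for Stc1. Vdr was the steadiest, with an SD of 0.09 on the log2 scale that only 3.27% of tested genes undercut. Cyp24a1 varied most, with an SD of 0.68 that exceeded 97.6% of tested genes, and it varied within every group.

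**Figure D1:**
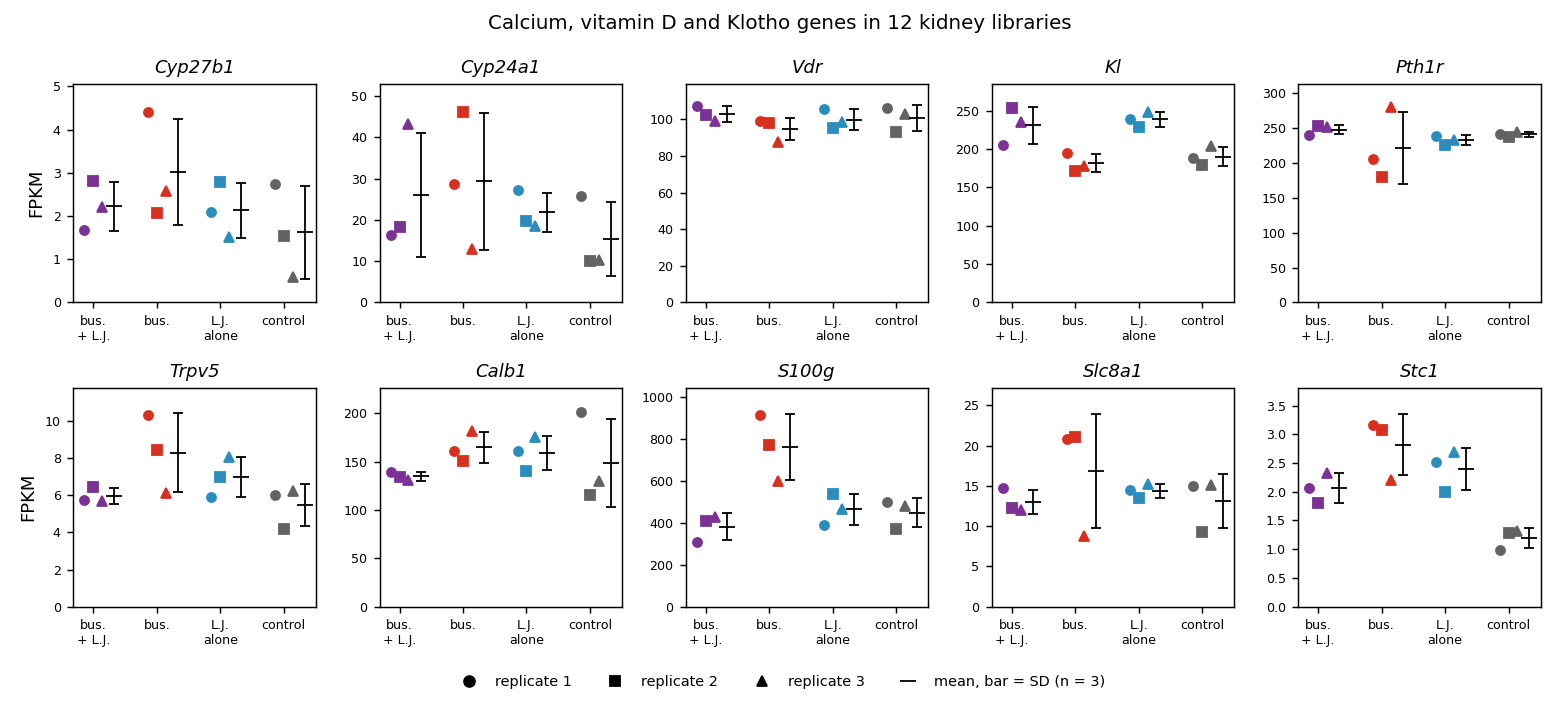
FPKM (linear axes from 0) of the 10 genes in the 12 kidney libraries, by group; symbols are libraries 1 to 3 of a group, and the bar beside them is the mean with its SD (n = 3). The busulfan libraries of S100g (601 to 916 FPKM) lie above all others, the control libraries of Stc1 (0.99 to 1.31 FPKM) lie below all others, and the Kl libraries of both L.J. groups lie above those of both groups without it.

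Stc1 rose in busulfan kidneys, the only call among the 10 genes against control. Stc1, at chr14:69029289-69041401 (GRCm38.p6), encodes stanniocalcin-1, a secreted glycoprotein that regulates calcium and phosphate in fish and is made in mammalian kidney. Its levels were 3.17, 3.07 and 2.21 FPKM in the busulfan libraries, against 0.99, 1.29 and 1.31 FPKM in control libraries. Busulfan plus L.J. libraries held 2.06, 1.81 and 2.32 FPKM. L.J. alone libraries held 2.51, 1.99 and 2.7 FPKM. All 9 treated libraries were thus above all 3 control libraries, and the 3 treated groups overlapped one another. The mean was 2.82 ± 0.53 FPKM with busulfan and 1.20 ± 0.18 FPKM in control (SD, n = 3 each), a log2 change of 0.79 (SE 0.14, limma adjusted p = 0.0364). The difference from control was 0.63 (SE 0.14, adjusted p = 0.489) for L.J. alone and 0.48 (SE 0.14, adjusted p = 1) for busulfan plus L.J., and neither was called. Busulfan plus L.J. against busulfan gave -0.31 (SE 0.14, adjusted p = 0.211). At such low FPKM the added 1 shrinks the log2 change, and the ratio of the means was 2.35 for busulfan over control.

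The call for Stc1 was lost when any 1 of 10 libraries was left out, with an adjusted p of up to 0.166. It was kept without busulfan 3 (0.91, adjusted p = 0.000802) or without busulfan plus L.J. 1. Without busulfan 3, however, 3989 of the 12281 tested genes were called in busulfan against control. Calls named below for fits without busulfan 3 are therefore not particular to the gene. The 3 busulfan libraries were close after their trends with transcript length and GC content were removed, at 0.86, 0.77 and 0.76 above the control mean on the log2 scale. The reference annotation places Gm41192 on the opposite strand across 229 of the exonic bases of Stc1, and how strand was treated in counting is not given in the sources used here, so reads of the 2 genes cannot be told apart there.

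S100g was called in the other main comparison: it fell in busulfan plus L.J. kidneys relative to busulfan kidneys. S100g, at chrX:162961992-162964599, encodes calbindin-D9k, a small buffer that ferries calcium through the cell and a textbook vitamin D target in the intestine. Busulfan plus L.J. libraries held 309.46, 407.65 and 429.58 FPKM, against 915.9, 770.01 and 601.11 FPKM in busulfan libraries. The levels were 389.57, 538.51 and 465.88 FPKM with L.J. alone, against 498.11, 369.99 and 481.38 FPKM in control. Every busulfan library was above every library of the other 3 groups, which overlapped one another. The mean was 382.2 ± 64.0 FPKM with busulfan plus L.J. and 762.3 ± 158 FPKM with busulfan (SD, n = 3 each), a log2 change of -0.99 (SE 0.19, limma adjusted p = 0.0342). Busulfan against control gave 0.75 (SE 0.19), which missed the threshold (adjusted p = 0.0665) although the groups did not overlap. Busulfan plus L.J. against control gave -0.24 (SE 0.19, 95% interval -0.66 to 0.18), and L.J. alone against control gave 0.05 (SE 0.19, 95% interval -0.37 to 0.47).

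The size of the S100g difference moved with the libraries left out and with a joint correction for length and GC content. Its transcript, at 480 bases, is longer than those of only 0.37% of tested genes. Relative to the control mean, busulfan 1, 2 and 3 stood at 1.04, 0.79 and 0.43 on the log2 scale, and at 0.83, 0.51 and 0.21 after the correction for length and GC content. With that correction, busulfan plus L.J. against busulfan was -0.68 (adjusted p = 0.0979) and no longer called. Without busulfan 3 the change was -1.15 (adjusted p = 0.00161), and busulfan against control was 0.91 and called (adjusted p = 0.00479). Other libraries moved the values the other way: the change was -0.84 without busulfan 1 or without busulfan plus L.J. 1, and busulfan against control was 0.61 without busulfan 1 and 0.62 without control 2. The call for busulfan plus L.J. against busulfan was kept without busulfan 3 or control 2 and lost without any 1 of the other 10 libraries (adjusted p of up to 0.113).

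Markers of several nephron segments were set beside these differences. Those of the distal convoluted tubule were the 4 genes Slc12a3, Pvalb, Wnk4 and Trpm6, of which none was at 0 throughout a group. Their summed level was 416, 323 and 269 FPKM in busulfan 1, 2 and 3. It was 231 to 247 FPKM with busulfan plus L.J., 251 to 268 FPKM with L.J. alone and 207 to 257 FPKM in control. For the connecting tubule, whose 4 markers include Calb1, Slc8a1 and Trpv5 beside Klk1, the sum was 1546, 1477 and 1677 FPKM in busulfan 1, 2 and 3. It lay within the control range of 1023 to 1725 FPKM. Klk1 made up most of that sum, at 1354, 1296 and 1480 FPKM, so the sum says little about the other markers. All 4 had positive differences for busulfan against control, with a median of 0.23 against 0.08 over all tested genes, and none was called. The thick ascending limb and principal cell sums were highest in busulfan 2 among the busulfan libraries, and Pvalb was higher in busulfan 3 than in busulfan 2, so the order of the busulfan libraries was not the same for all of these markers. The summed level of 4 intercalated cell markers was 61.4 to 134 FPKM with busulfan, 50.7 to 61.7 with busulfan plus L.J., 49.6 to 57.9 with L.J. alone and 52.8 to 56.6 in control. The 4 straight proximal tubule markers all had negative differences for busulfan against control, with a median of -0.54, and none was called. Their sum was 951, 1278 and 1557 FPKM in busulfan 1, 2 and 3, against 1262 to 1651 FPKM in control. Of 5 convoluted proximal tubule markers, 2 had positive and 3 negative differences in that comparison, with a median of -0.145. Pvalb and Wnk4 recur among the pathway genes described further on. The part of these cell types in the S100g and Stc1 differences was not tested. In whole kidney, a larger number of cells of a type and more RNA per cell cannot be told apart.

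Windows of the 250 bases upstream of the RefSeq start were found in the RefSeq table of GRCm38.p6 for 7 of the 10 genes. The level of S100g separated the busulfan libraries from all others. Groups did not overlap for 22% of all tested genes in busulfan against control and 19.2% in busulfan plus L.J. against busulfan. The share of genes apart from all other groups at once is not given here. The level of Kl separated the libraries with L.J. from those without, as did that of 0.871% of all tested genes. The windows of S100g and Kl are shown for these reasons. Both read 5′ to 3′ on the strand of the gene, S100g on the minus strand at chrX:162964600-162964849 and Kl on the plus strand at chr5:150952357-150952606. Capitals mark AGGTCA, the nuclear receptor half-site, or its reverse complement TGACCT in S100g, and the GC box GGGCGG or its reverse complement CCGCCC in Kl.
S100g: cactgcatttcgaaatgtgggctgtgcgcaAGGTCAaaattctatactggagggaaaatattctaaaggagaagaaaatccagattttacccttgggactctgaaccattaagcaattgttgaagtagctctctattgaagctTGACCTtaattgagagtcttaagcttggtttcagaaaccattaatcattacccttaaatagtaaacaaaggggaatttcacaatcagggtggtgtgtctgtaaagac
Kl: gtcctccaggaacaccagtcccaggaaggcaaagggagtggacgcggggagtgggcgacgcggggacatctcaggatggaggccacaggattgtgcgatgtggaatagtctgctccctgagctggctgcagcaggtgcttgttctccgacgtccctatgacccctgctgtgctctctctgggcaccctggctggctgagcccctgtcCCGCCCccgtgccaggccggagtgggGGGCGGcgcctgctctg
The S100g window held 2 half-sites, which began 220 and 107 bases before the start, and no TATAAA or GC box. The Kl window held 2 GC boxes, which began 17 and 43 bases before the start, and neither of the other motifs. Of 32851 windows of the same length, 14% held AGGTCA, 32.7% held GGGCGG and 12.4% held TATAAA on either strand. GC content was 38.4% in the S100g window and 66.8% in the Kl window, against a median of 52.4%. These matches describe the letters of the reference and were not tested as binding sites.

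Kl was higher in the groups given L.J., whether or not busulfan had been given, but it was called in no comparison. The gene, at chr5:150952607-150993817, encodes Klotho, the membrane co-receptor for FGF23 that is also shed into the circulation. Its level was 205.48, 252.94 and 234.56 FPKM with busulfan plus L.J., against 194.16, 171.14 and 178.24 FPKM with busulfan. It was 238.59, 228.2 and 248.47 FPKM with L.J. alone, against 188.51, 178.57 and 203.43 FPKM in control. The 6 libraries with L.J. (205.48 to 252.94 FPKM) did not overlap the 6 without (171.14 to 203.43 FPKM), although the gap between the sets was narrow. Busulfan plus L.J. (231.0 ± 23.9 FPKM) and L.J. alone (238.4 ± 10.1) overlapped each other, as did busulfan (181.2 ± 11.8) and control (190.2 ± 12.5; SD, n = 3 each).

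The log2 difference in Kl was 0.35 (SE 0.10, limma adjusted p = 0.0711) for busulfan plus L.J. against busulfan and 0.33 (SE 0.10, adjusted p = 0.999) for L.J. alone against control. The interaction, which is the difference between these 2 changes, was 0.02 (95% interval -0.28 to 0.32). Busulfan against control gave -0.07 (SE 0.10, adjusted p = 0.704). A comparison of all 6 libraries with L.J. against all 6 without, added after these values had been seen, gave 0.34 (SE 0.07, 95% interval 0.19 to 0.49, adjusted p = 0.0946). Without busulfan 3 it was 0.33 and passed the threshold (adjusted p = 0.0101). Busulfan plus L.J. against busulfan was then also called (0.33, adjusted p = 0.0307). In that fit 2410 of all tested genes were called in the added comparison and 3880 in busulfan plus L.J. against busulfan. In the added comparison with all 12 libraries, 0.228% of all tested genes were called and 0.871% had sets that did not overlap. Of the 10 genes none was called and 1 had no overlap. An unadjusted p under 0.05 was found for 2 of the 10 (Kl and S100g) and for 15.2% of all tested genes.

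A set of liver transcripts moved with the same division of libraries. The summed level of Alb, Apoa1, Ttr and Serpina1a, none at 0 in a whole group, was 7.55 to 10.8 FPKM with busulfan plus L.J., against 23.1 to 49.5 FPKM with busulfan. It was 4.73 to 8.58 FPKM with L.J. alone, against 22.0 to 58.6 FPKM in control. The libraries with L.J. thus had lower liver transcripts and higher Kl than those without it. Within the L.J. libraries the 2 levels did not run opposite: busulfan plus L.J. 2 had the highest liver sum (10.83 FPKM) and the highest Kl (252.94 FPKM). The part of the tissue taken in the difference between libraries with and without L.J. was not tested.

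The vitamin D enzyme genes were variable and uncalled, and their receptor hardly moved. Cyp24a1, which inactivates vitamin D, held 16.41, 18.29 and 43.2 FPKM with busulfan plus L.J., against 28.75, 46.17 and 13.05 FPKM with busulfan. With L.J. alone it held 27.24, 19.81 and 18.51 FPKM, against 25.81, 10.16 and 10.25 FPKM in control. A single library stood well above or below its 2 partners in the busulfan plus L.J. and control groups, and all 4 groups overlapped. Busulfan against control gave 0.85 (SE 0.48, 95% interval -0.20 to 1.90, adjusted p = 0.308). It was called without busulfan 3, the lowest busulfan library (1.32, adjusted p = 0.046), and was 0.45 without busulfan 2, the highest (adjusted p = 0.701). Exons of Cyp24a1 share 83 bases with Pfdn4 on the opposite strand, which lay between 11.3 and 14.4 FPKM in all libraries.

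Cyp27b1, which activates vitamin D, was low and uncalled. Its means were 2.22 ± 0.57 FPKM with busulfan plus L.J., 3.02 ± 1.23 with busulfan, 2.13 ± 0.63 with L.J. alone and 1.62 ± 1.08 in control (SD, n = 3 each). Busulfan against control gave 0.66 (SE 0.30, 95% interval -0.004 to 1.32, adjusted p = 0.223), and the libraries of the groups overlapped. The value was 0.34 without control 3, 0.42 without busulfan 1 and 0.96 without control 1, none of them called. Vdr, the receptor through which active vitamin D controls transcription, lay between 87.7 and 107 FPKM in all 12 libraries. Its changes ran from -0.09 for busulfan against control (95% interval -0.27 to 0.10) to 0.12 for busulfan plus L.J. against busulfan (95% interval -0.07 to 0.30). The 3 busulfan plus L.J. libraries (99.06 to 107.45 FPKM) were just above the 3 busulfan libraries (87.72 to 98.79 FPKM).

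Pth1r encodes the receptor for parathyroid hormone. The busulfan libraries held 205.28, 179.57 and 279.63 FPKM, against 240.88, 237.4 and 244 FPKM in control. Busulfan plus L.J. libraries held 240.37, 252.35 and 250.84 FPKM and L.J. alone libraries 239.28, 225.97 and 232.74 FPKM, so that busulfan 1 and 2 were the lowest of the 12 and busulfan 3 the highest. The busulfan mean was 221.5 ± 52.0 FPKM, against 240.8 ± 3.30 FPKM in control (SD, n = 3 each), and the difference was -0.14 (SE 0.13, adjusted p = 0.536). Without busulfan 3 it was -0.32 (SE 0.08) and passed the threshold (adjusted p = 0.00911), and without busulfan 2 it was -0.0068 (adjusted p = 0.985). The length and GC correction gave -0.36 (adjusted p = 0.212).

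Among the other calcium transport genes none was called. Trpv5 encodes the apical channel through which calcium enters. It held 5.75, 6.44 and 5.66 FPKM with busulfan plus L.J., against 10.31, 8.45 and 6.11 FPKM with busulfan. With L.J. alone it held 5.91, 6.98 and 8.05 FPKM, against 6.02, 4.2 and 6.22 FPKM in control. Busulfan 1 and 2 were the highest of the 12 libraries, and busulfan 3 lay among the rest. Busulfan against control gave 0.51 (SE 0.18, 95% interval 0.12 to 0.90, adjusted p = 0.131), and without busulfan 3 it was 0.69 and called (adjusted p = 0.00914).

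Slc8a1 encodes the sodium-calcium exchanger through which calcium leaves on the blood side. The busulfan libraries held 20.81, 21.11 and 8.72 FPKM, against 15.04, 9.25 and 15.09 FPKM in control, so that the busulfan group held both the highest values of the 12 and the lowest. Busulfan plus L.J. libraries lay between 12.1 and 14.8 FPKM and L.J. alone libraries between 13.5 and 15.3. Its transcript, at 18464 bases, is longer than 99.9% of those of tested genes. After the correction for length and GC content, busulfan 3 was 0.08 above the control mean on the log2 scale, against -0.51 as deposited. Busulfan against control gave 0.28 (SE 0.28, 95% interval -0.34 to 0.89, adjusted p = 0.582), and 0.41 (adjusted p = 0.232) with that correction. Without busulfan 3 it was 0.67 and called (adjusted p = 0.0164), and without busulfan 1, busulfan 2 or control 2 it was 0.06 to 0.08.

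Calb1 encodes calbindin-D28k, the main calcium buffer of the distal nephron. Its means were 134.7 ± 4.21 FPKM with busulfan plus L.J., 164.8 ± 16.0 with busulfan, 159.1 ± 17.6 with L.J. alone and 148.7 ± 45.8 in control (SD, n = 3 each). The 3 busulfan plus L.J. libraries (130.6 to 139 FPKM) lay below the 3 busulfan libraries (151 to 182.3 FPKM), a difference of -0.28 (SE 0.17, adjusted p = 0.338). The control spread came from 1 library at 200.95 FPKM, the highest of the 12. Between busulfan and control the difference was 0.18 (SE 0.17), and 0.02 to 0.42 with 1 library left out.

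**Figure D2:**
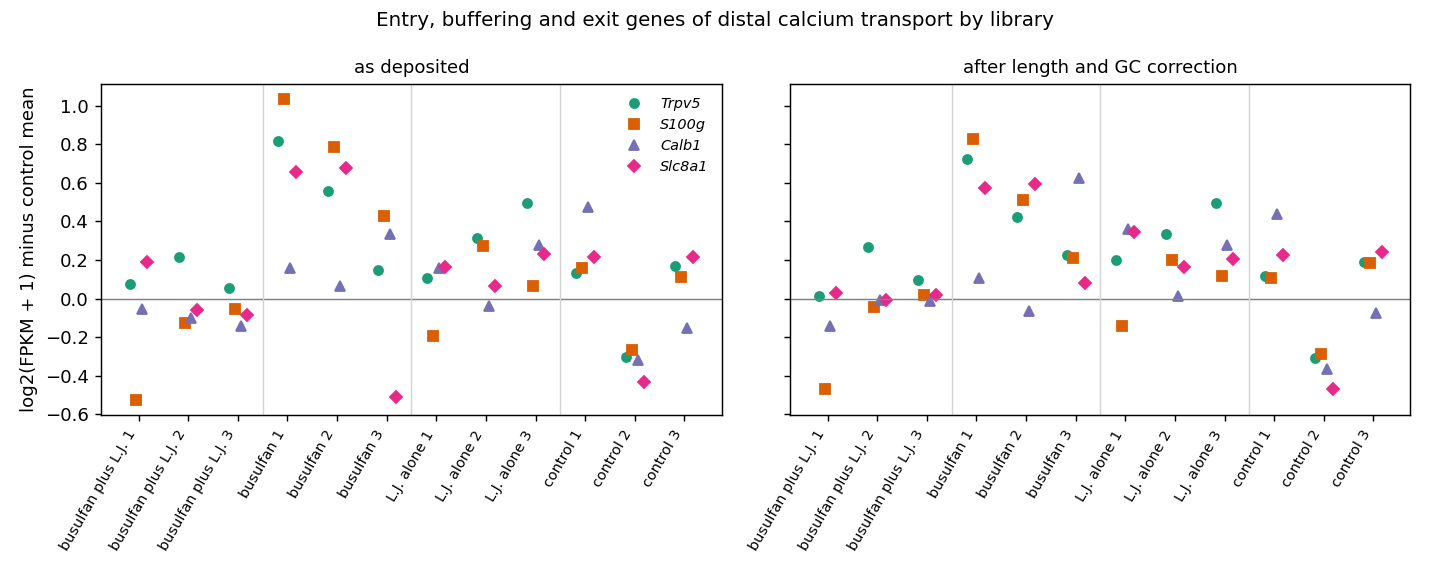
Difference of each library from the mean of the 3 control libraries, in log2(FPKM + 1), for the entry, buffering and exit genes Trpv5, S100g, Calb1 and Slc8a1 (symbols), by library along the x axis, as deposited (left) and after the length and GC correction (right). The busulfan 3 value of Slc8a1 is -0.51 as deposited and 0.08 with the correction, and the 3 busulfan values of S100g are then 0.83, 0.51 and 0.21.

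Counted over the 10 genes, busulfan against control gave 1 call (Stc1, higher), with 7 positive and 3 negative differences; 1.44% of all tested genes were called. Groups of S100g and Stc1 did not overlap, 2 of 10, and 22% of all tested genes had such groups. The median difference was 0.39 for the 10 genes and 0.08 for all tested genes. Without busulfan 3, where 3989 of all 12281 tested genes were called, the count was 6: Stc1, S100g, Trpv5, Slc8a1, Cyp24a1 and Pth1r. It was 0 without busulfan 1, without busulfan 2 or without any control library, and 0 also without busulfan plus L.J. 2 or 3 or any L.J. alone library. Over all genes, 89 calls were higher and 88 lower, and quantile normalization turned this split to 181 higher and 322 lower.

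Busulfan plus L.J. against busulfan gave 1 call (S100g, lower), with 3 positive and 7 negative differences; 3.24% of all tested genes were called. Groups did not overlap for Vdr, Kl, Calb1 and S100g, 4 of 10, and 19.2% of all tested genes had such groups. The median difference was -0.27 for the 10 genes and -0.09 for all tested genes. Without busulfan 3, where 3880 of all 12281 tested genes were called, the count was 6: S100g, Stc1, Trpv5, Slc8a1, Kl and Pth1r. Leaving out control 2 kept 1 call, and leaving out any 1 of the other 10 libraries gave 0. Over all genes, 145 calls were higher and 253 lower, and with quantile normalization 402 were higher and 254 lower. This comparison and busulfan against control share the busulfan libraries, so opposite signs in the 2 are not separate observations.

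The other comparisons called none of the 10 genes. For busulfan plus L.J. against control, 0.00814% of all tested genes were called, 10.1% had groups without overlap and 2.87% had an unadjusted p under 0.05. Of the 10 genes, Kl and Stc1 had no overlap, and the same 2 had an unadjusted p under 0.05. For L.J. alone against control, 0% of all tested genes were called, 337 had an unadjusted p under 0.05 and 13% had no overlap; Kl and Stc1 were again the 2 genes without overlap and with an unadjusted p under 0.05. For the interaction, 0.0163% of all tested genes were called, and 3 of the 10 genes had an unadjusted p under 0.05, as had 11.7% of all tested genes: Stc1 (-0.94, SE 0.20, adjusted p = 0.222), S100g (-1.03, SE 0.27, adjusted p = 0.252) and Trpv5 (-0.70, SE 0.25, adjusted p = 0.34). Without busulfan 3 the interaction called 5 of the 10 genes and 1489 of all 12281 tested genes.

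**Figure D3:**
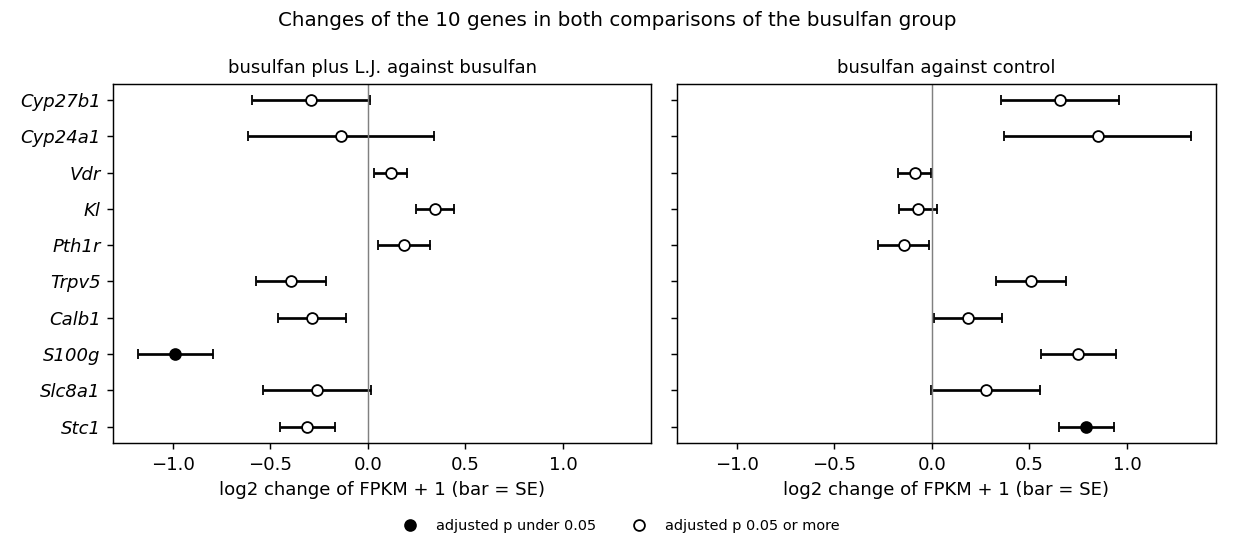
Log2 changes on the log2(FPKM + 1) scale (points) with their SE (bars) for the 10 genes, in busulfan plus L.J. against busulfan (left) and busulfan against control (right); filled points had a limma adjusted p under 0.05. The 2 filled points are S100g on the left (-0.99) and Stc1 on the right (0.79), while Vdr stays between -0.09 and 0.12 in these 2 comparisons.

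Around the 10 genes, 94 of 111 other genes of calcium, phosphate, magnesium and vitamin D handling were tested. Busulfan against control called 3 of them (2 higher, 1 lower) and busulfan plus L.J. against busulfan called 4 (1 higher, 3 lower), where 1.44% and 3.24% of all tested genes were called. None was called for busulfan plus L.J. against control, L.J. alone against control or the interaction, where 3, 2 and 13 had an unadjusted p under 0.05, against 2.87%, 2.74% and 11.7% of all tested genes. The calls were spread over 5 of the 6 lists. All of them held without busulfan 3, and apart from Xpr1 in busulfan plus L.J. against busulfan each was lost without any 1 of at least 10 of the 12 libraries.

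Of 9 tested genes of transcellular calcium transport, none was called against control and 1 fell in busulfan plus L.J. kidneys relative to busulfan kidneys. That gene was Pvalb, the buffer parvalbumin of the early distal convoluted tubule, with 65.9 ± 5.63 FPKM with busulfan plus L.J. and 102 ± 19.2 FPKM with busulfan (log2 change -0.61, SE 0.13, limma adjusted p = 0.0421). With the length and GC correction it was -0.39 and not called (adjusted p = 0.156). All 9 differences were negative in that comparison, with a median of -0.37 against -0.09 over all tested genes. The plasma membrane calcium pump gene Atp2b4 had the smallest p for busulfan against control, at 5.45 ± 1.38 FPKM with busulfan and 3.58 ± 0.46 FPKM in control (0.48, SE 0.16, adjusted p = 0.117).

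Of 12 tested genes of paracellular calcium transport and calcium sensing, Bsnd fell in busulfan plus L.J. kidneys relative to busulfan kidneys (-0.52, SE 0.13, limma adjusted p = 0.0499). Bsnd encodes barttin, a membrane protein needed for salt reabsorption in the thick ascending limb, and held 13.9 ± 0.65 FPKM with busulfan plus L.J. and 20.6 ± 3.76 FPKM with busulfan. None was called for busulfan against control, where 6 of 12 had an unadjusted p under 0.05, as had 22.7% of all tested genes. Among these, the tight junction gene Cldn16, whose product lets calcium and magnesium pass in the thick ascending limb, held 9.22, 11.79 and 8.81 FPKM with busulfan, against 7.11, 5.94 and 5.84 FPKM in control. The busulfan libraries were all above the control libraries, with a difference of 0.58 (SE 0.14, adjusted p = 0.0616).

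Of 22 tested genes of vitamin D metabolism and its receptor partners, Fdxr rose in busulfan kidneys, with 5.86 ± 0.28 FPKM with busulfan and 4.04 ± 0.27 FPKM in control (0.44, SE 0.10, limma adjusted p = 0.0486). The length and GC correction gave 0.22 (adjusted p = 0.143), and the call held under 2 of 8 alternatives that left out no library. Fdxr encodes the reductase that feeds electrons, through ferredoxin, to the mitochondrial enzymes of Cyp27b1 and Cyp24a1. For busulfan plus L.J. against busulfan none was called, and 6 of 22 had an unadjusted p under 0.05, near the 23.4% of all tested genes. Among these, the vitamin D binding protein gene Gc held 16.11, 13.05 and 13.69 FPKM with busulfan plus L.J., against 49.5, 81.1 and 17.95 FPKM with busulfan (-1.49, SE 0.45, adjusted p = 0.0838). Cyp3a11, of which the liver makes most, was near 0 in both L.J. groups, at 0.23 ± 0.19 FPKM with busulfan plus L.J. and 1.33 ± 0.71 FPKM with busulfan (-0.89, SE 0.28, adjusted p = 0.0988).

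Of 22 tested genes of FGF23, Klotho and parathyroid hormone signalling, none was called for busulfan against control or for busulfan plus L.J. against busulfan, where 6 and 5 had an unadjusted p under 0.05. These counts are near the background, since 22.7% and 23.4% of all tested genes did so. Rgs2, a brake on signalling through G proteins, held 10.77, 14.36 and 3.42 FPKM with busulfan, against 3.07, 2.86 and 2.88 FPKM in control (1.24, SE 0.35, adjusted p = 0.0829). Fgfr1, which with Klotho forms the FGF23 receptor, gave 0.33 (SE 0.11, adjusted p = 0.118) in the same comparison. Adam10, one of the proteases that shed Klotho from the membrane, held 23.8 ± 1.78 FPKM with busulfan plus L.J. and 19.1 ± 2.85 FPKM with busulfan (0.32, SE 0.12, adjusted p = 0.136). The scaffold gene Slc9a3r2 gave -0.45 (SE 0.15, adjusted p = 0.113) in that comparison.

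Of 10 tested phosphate transport genes, Xpr1 was called in both main comparisons. Xpr1 encodes the exporter through which phosphate leaves cells. It held 28.42, 28.67 and 29.42 FPKM with busulfan plus L.J., against 20.75, 18.37 and 20.81 FPKM with busulfan. It held 29.3, 30.21 and 30.69 FPKM with L.J. alone, against 25.79, 26.83 and 28.58 FPKM in control. All 3 busulfan libraries, busulfan 3 included, lay below the other 9. Xpr1 fell by 0.42 on the log2 scale in busulfan kidneys relative to control (SE 0.08, limma adjusted p = 0.0364) and was 0.51 higher with busulfan plus L.J. than with busulfan (SE 0.08, adjusted p = 0.0174). The second call held without 8 of the 12 libraries in turn and the first without 2. In the comparison of all L.J. libraries with all others it was 0.33 higher (SE 0.05, adjusted p = 0.0325). With 1 library left out, this call held only without busulfan 3 (adjusted p of up to 0.137 without another library). It held under 4 of 7 alternatives that left out no library.

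**Figure D4:**
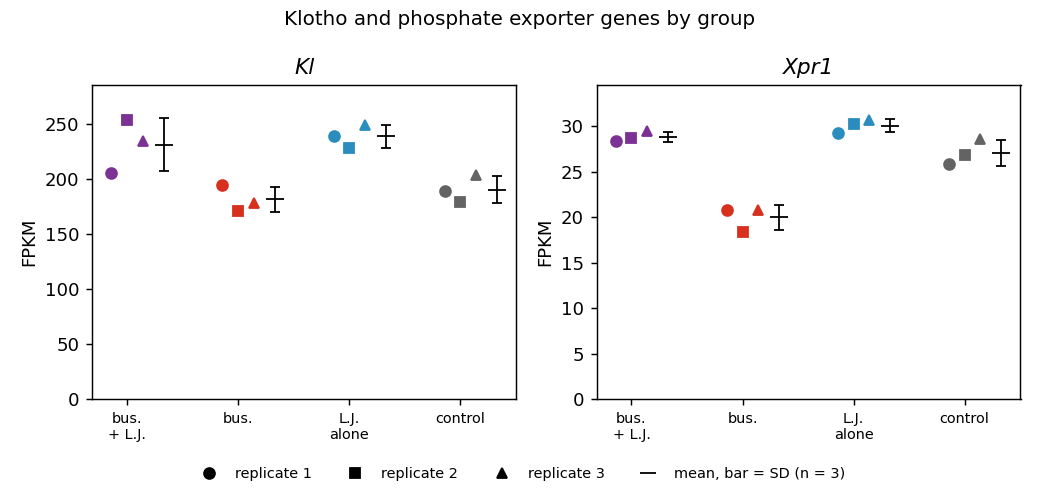
FPKM (linear axes from 0) of Kl and Xpr1 by group; symbols are libraries 1 to 3, and the bar is the mean with its SD (n = 3). The Kl libraries with L.J. start at 205.48 FPKM and those without end at 203.43, whereas the 3 busulfan libraries of Xpr1 (18.4 to 20.8 FPKM) lie below the other 9.

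Of 19 tested genes of magnesium transport and the distal tubule, Wnk4 was called in both main comparisons. Wnk4 encodes a kinase that sets sodium chloride transport in the distal convoluted tubule and is also known to act on TRPV5. It held 53.16, 44.45 and 44.15 FPKM with busulfan plus L.J., against 92.35, 85.85 and 54.86 FPKM with busulfan, and 43.85, 40.56 and 45.28 FPKM in control. The busulfan libraries were thus above both other groups, with busulfan 3 the nearest to them. The log2 change was 0.80 for busulfan against control (SE 0.16, limma adjusted p = 0.0428) and -0.68 for busulfan plus L.J. against busulfan (SE 0.16, adjusted p = 0.0489).

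For the 5 genes with an SD of at least 0.3 on the log2 scale over the 12 libraries, the genes with the most similar pattern were found by the root mean square difference between centred log2 values. The nearest to S100g were Gstt1, Slc29a1 and Kcne1, with differences of 0.163 to 0.168. Those nearest to Stc1 were Oas1c, Itprip and Mlph, at 0.162 to 0.168, and those nearest to Slc8a1 were Ppm1k, Ptch1 and Insr, at 0.147 to 0.153. Cyp27b1 was followed less closely, by Col27a1, Tst and Usp2 at 0.224 to 0.255. The largest differences were those of Cyp24a1, from Pde4c, Gdf15 and Rsph3b at 0.373 to 0.426. Its SD was also the largest, at 0.682 against 0.336 to 0.443 in the other genes, and the differences are not scaled to the SD. The pattern of a gene over these libraries includes the difference of busulfan 1 and 2 from the rest.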

How the data were processed

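RNA from frozen mouse kidneys was sequenced after standard Illumina library preparation, per the labels' protocols. Groups came from the sample descriptions, and replicate numbers from the titles. The authors deposited 1 table of FPKM values for 21004 genes in 12 libraries, per the file headers. Bowtie 0.12.2 and the mm10 build are named in the submitters' processing notes; how fragments were counted, and on which annotation, is not given here. FPKM keep no depth, so no counting error is given.

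The filter asked for FPKM of 1 or more in 3 or more libraries and left 12281 genes, whose values became log2(FPKM + 1); this understates changes at low levels. In limma 3.58.1 under R 4.3.3, with its trend option, all 12 libraries entered a fit of group means, with two-sided tests and Benjamini-Hochberg adjustment over all tested genes. The method was tested on simulated data in which a gene had the same spread in every library and noise was independent. No simulated library stood apart as busulfan 1 and 2 did, so that test cannot speak for calls that changed with the libraries left out. Coordinates and upstream sequences came from RefSeq (GRCm38.p6), and lengths and GC content from GENCODE (99% of tested genes). Tables and plots used Python 3.11.15, pandas 2.3.3 and matplotlib 3.10.9.

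The 10 genes, the 6 pathway lists and 15 marker lists were chosen with earlier results of these data known. In each list up to 3 called genes with the largest change are named, or, where none is called, at most 2 with the smallest p; a gene that this rule names is not reported here. Alternatives were each library left out in turn, a replicate block, library weights, quantile normalization, no filter, a pseudocount of 0.1, a fit on the compared groups alone, a length and GC correction (loess, span 0.5), and block and correction together. The comparison of all L.J. libraries with all others was added after the values of Kl had been seen.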

Additional observations from a re-analysis of the deposited data

Results flagged for a closer look

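For 7 of the 10 genes, every library given a treatment lay on one side of its comparison group's mean without the other treatment, and on the opposite side with it. The same held for 14.1% of all tested genes. The interaction measures that difference on the log2 scale. None of these interactions passed the threshold in limma (adjusted p from 0.222 to 0.727), so the differences are given as values. Several of the opposed effects were about 1 SE or less.

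By the rule above, the effect of busulfan changed direction between kidneys without and with L.J. for 4 genes: S100g, Calb1, Stc1 and Trpv5. The same held for 6.58% of all tested genes. For S100g, busulfan plus L.J. against L.J. alone gave -0.28 and busulfan against control gave 0.75, an interaction of -1.0338. For Calb1 the 2 effects were -0.23 and 0.18, an interaction of -0.4177.

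For Stc1 both treatments changed direction in this way: busulfan gave -0.15 with L.J. and 0.79 without, and L.J. gave -0.31 with busulfan and 0.63 without, an interaction of -0.9385. The same held for Trpv5, where busulfan gave -0.19 with L.J. and 0.51 without, and L.J. gave -0.39 with busulfan and 0.31 without, an interaction of -0.7017. Each gene is a single interaction seen from 2 sides, not 2 results.

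L.J. gave -0.29 with busulfan and 0.32 without for Cyp27b1 (interaction -0.6118). It gave -0.26 and 0.15 for Slc8a1 (interaction -0.4136), and 0.19 and -0.05 for Pth1r (interaction 0.2358). For these 3 genes and Calb1 the 95% interval of the interaction includes 0.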

How the results depend on the processing

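Calls among the 10 genes depended on the fit. For busulfan against control the count of 1 became 0 without the filter, with only the groups compared and with the replicate block, alone or with the length and GC correction, and 7 with library weights, which gave busulfan 3 a weight of 0.113. Leaving out 1 library gave 0 to 6. For busulfan plus L.J. against busulfan the count of 1 became 0 without the filter, with only the groups compared, with the length and GC correction, and with the replicate block alone or with that correction. It became 2 with quantile normalization, 6 with library weights, and 0 to 6 with 1 library left out. Library weights gave 5 for the interaction and 2 for the comparison of all L.J. libraries with all others, against 0 in each, and leaving out 1 library gave 0 to 5 and 0 to 2. The count stayed 0 under every alternative run for busulfan plus L.J. against control and L.J. alone against control.

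Directions reversed for 4 results, of which none was called: Kl for busulfan against control with library weights (0.0105), the Kl interaction with the length and GC correction (-0.0087, also with the block) and with 1 library left out (-0.0482 to 0.101), Cyp24a1 for busulfan plus L.J. against busulfan (-0.61 to 0.27) and S100g for L.J. alone against control (-0.088 to 0.167), both with 1 library left out. The cause was not tested.

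Over all genes, the 177 calls for busulfan against control became 55 without the filter, 503 with quantile normalization, 5240 with library weights, 12 with the length and GC correction, 0 with it and the block, 0 with only the groups compared and 0 to 3989 with 1 library left out. The 398 for busulfan plus L.J. against busulfan became 150, 656, 4945, 30, 0, 2 and 1 to 3880. Library weights moved the interaction from 2 to 2422 calls and the comparison of all L.J. libraries from 28 to 3533; with 1 library left out these were 0 to 1489 and 1 to 2410. With library weights the median over all genes was 0.13 for busulfan against control and -0.16 for busulfan plus L.J. against busulfan.

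Libraries share only their replicate number: deviations of 18 same-numbered pairs correlated at -0.239 to 0.081, those of 36 other pairs at -0.146 to 0.190, and 0 of 12 libraries correlated best with its own number. With the replicate block the calls over all genes were 11 for busulfan against control and 4 for busulfan plus L.J. against busulfan, and the adjusted p was 0.0734 for Stc1 and 0.066 for S100g. The fit on only the groups compared was not run for the interaction or the comparison of all L.J. libraries. Depth is unknown, which leaves the counting error of low genes such as Cyp27b1 and Stc1 unknown.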
